A study of Danio rerio with 4 samples.

Results

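The interferon-stimulated genes described here are 38 zebrafish genes of the antiviral response, found by their symbols among the 27758 features of 4 single-cell libraries. They come from a list of 43 symbols. The other 5 symbols, rigi, parp14, dtx3l, ifi44a1 and ifi44g, matched no feature and have no value here. The genes were grouped by what their products do: direct antiviral effectors, Mx GTPases, IFIT proteins, transcription factors of the pathway, sensors of foreign nucleic acid, ubiquitin and proteasome genes, and guanylate-binding proteins.

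Interferons are secreted proteins that bind a receptor on the same or a neighbouring cell. The receptor's JAK kinases phosphorylate STAT proteins, and a complex of STAT proteins with IRF9 enters the nucleus and binds interferon response elements in the promoters of its target genes. Some targets, such as rsad2 and the IFIT genes, are close to silent until interferon arrives, and others, such as the STAT and IRF genes, have a steady level in many cells and rise further upon stimulation. Macrophages are both a source of interferon and cells that respond to it.

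Zebrafish embryos, freed from the chorion and kept in wells of 40 to 50, received DMSO, the solvent control, or 20 µM SB431542, an inhibitor of the TGF-β type I receptor ALK5, between 30 and 50 hours post fertilization (hpf). The treatment window ended before either harvest. At 3 days post fertilization (dpf) cells carrying the gata2b GFP reporter, which marks hemogenic endothelium and blood progenitors, were sorted from whole larvae, and at 6 dpf cells carrying the mpeg1.1 mCherry reporter, which marks macrophages, were sorted. Each of the 4 groups is 1 library, so treatment, pool of embryos and library cannot be told apart at either stage, nor can stage and sort between the stages. No test across samples exists, and every interval given is a 95% interval for counting error alone.

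The libraries held 34398 (DMSO) and 28261 (ALK5 inhibitor) barcodes at 3 dpf and 2125 and 1272 at 6 dpf, and 1179 to 31396 cells per library were kept, with a median of 1740 to 6452 unique molecular identifiers (UMIs, each standing for 1 captured transcript). The 3 dpf libraries shared 248 barcodes, which is 0.721% and 0.878% of them, and the 6 dpf libraries shared 3. Cells were clustered without the genes described here, and clusters were named from marker genes as macrophage-like, hematopoietic stem and progenitor cell (HSPC)-like and so on. Against the label of hematopoietic and immune cells, clusters led by markers of pigment, neurons, skin and other tissues, called not blood-like below, held 49.0% and 45.4% of kept cells at 3 dpf and 64.4% and 57.3% at 6 dpf. Macrophage-like cells numbered 10176 and 9798 at 3 dpf and 611 and 417 at 6 dpf, and HSPC-like cells 1279 and 1055 at 3 dpf. Levels are UMIs of a gene per 1000000 UMIs of the class (CPM). The libraries count the 3′ ends of transcripts, so CPM is not scaled by gene length, and reads of near-identical copies, such as mxa, mxb and mxc or the ifit and gbp genes, may be split between copies.

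In macrophage-like cells at 3 dpf, 1 gene stood far above the rest. The Mx gene mxf, a dynamin-like GTPase of the family that traps incoming viral particles, reached 380 CPM in the DMSO library and 348 CPM in the ALK5 inhibitor library, which is 41.0% and 38.3% of the summed level of all 38 genes. At 6 dpf it stood at 73.4 and 77.7 CPM, or 12.7% and 11.2% of the sum. Also among the 10 highest in the 3 dpf DMSO library were the transcription factor stat2, gbp1, trim25, gbp2, isg15, xaf1, sting1 and ifit11. Of the 38 genes, 13, 11, 12 and 11 exceeded 10 CPM in the macrophage-like cells of the 3 dpf DMSO, 3 dpf ALK5 inhibitor, 6 dpf DMSO and 6 dpf ALK5 inhibitor libraries, and 14, 14, 15 and 11 were under 1 CPM, of which 4, 7, 9 and 7 had no UMI.

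**Figure D1:**
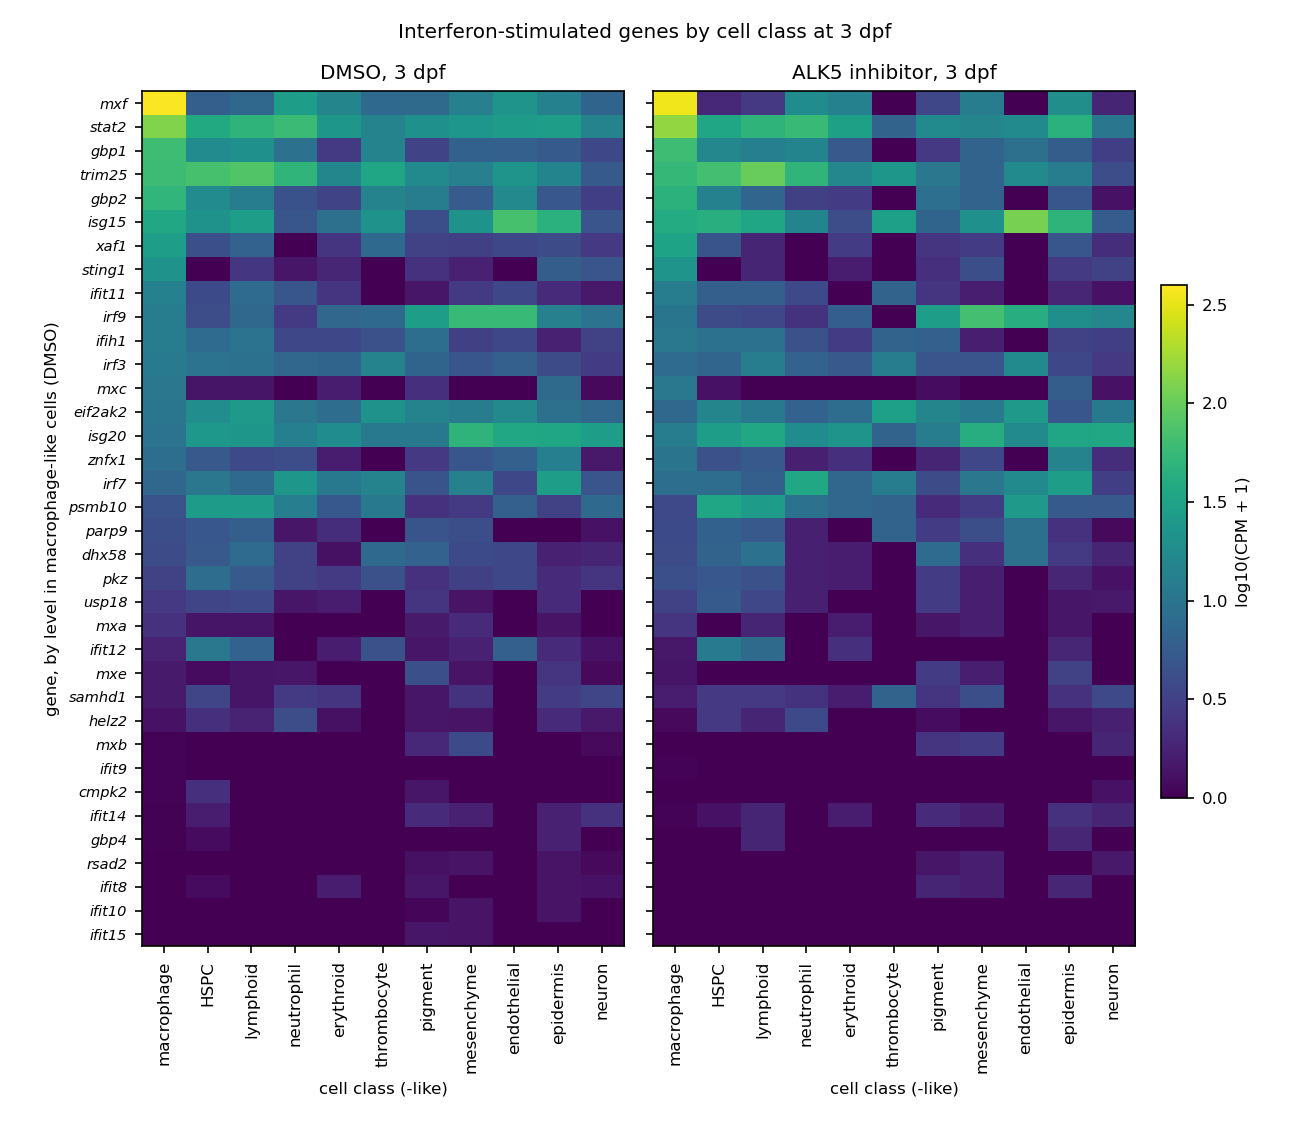
Level of each gene reported, as log10(CPM + 1), in the named cell classes of the 2 libraries at 3 dpf, with genes ordered by their level in macrophage-like cells of the DMSO library. The column of macrophage-like cells holds the brightest cell of the map, mxf at 380 and 348 CPM, while irf9 is brighter in mesenchyme-like than in macrophage-like cells and the bottom rows, rsad2 and most IFIT genes among them, are dark in every class.

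Among the effectors, isg15 encodes a ubiquitin-like protein that is attached to other proteins and is also secreted. Macrophage-like cells held isg15 at 34.1 CPM (95% counting interval 32.0 to 36.3) in the 3 dpf DMSO library and 38.9 CPM (36.2 to 41.8) with the inhibitor, against 3.89 and 4.78 CPM in neuron-like cells. It was not a macrophage gene alone: endothelial-like cells held 69.0 and 114 CPM, from only 126 and 58 cells, epidermis-like cells 44.9 and 47.6 CPM, and lymphoid-like cells 26.9 and 32.8 CPM. The endothelial-like values rest on few transcripts, as 3 UMIs there equal 7.96 and 24.5 CPM. Of the 39 endothelial-like cells of the inhibitor library with at least 1000 UMIs, none kept an isg15 UMI after thinning to that depth. Neutrophil-like cells held 9 and 20 isg15 UMIs among 2257234 and 1446472 UMIs of the class. These are too few for the comparison of treatments below, which asks for at least 30 over both libraries. An isg15 UMI was seen in 5.49% and 4.81% of these macrophages, falling to 2.91% and 2.96% after each cell was thinned to 1000 UMIs. The thinned shares in neuron-like cells, taken as background, were 0 of 1217 cells, which allows up to 0.247%, and 0.388%, at median depths of 2312 and 1654 UMIs against 2625 and 1851 in macrophage-like cells.

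The exonuclease gene isg20, whose product degrades viral RNA, had the reverse pattern and was lower in macrophage-like cells than in most classes. Macrophage-like cells at 3 dpf held 8.77 and 11.5 CPM, HSPC-like cells held 23.2 and 27.7 CPM, lymphoid-like cells 22.5 and 35.4 CPM and mesenchyme-like cells 48.2 and 40.5 CPM. The gene xaf1, which encodes an antagonist of the apoptosis inhibitor XIAP, followed macrophage-like cells instead. It stood there at 27.7 and 30.9 CPM and in every other named class of both 3 dpf libraries at 6.75 CPM or less. The RNA helicase-like gene znfx1 gave 7.76 and 8.92 CPM in macrophage-like cells and was highest in epidermis-like cells, at 12.1 and 13.6 CPM. The remaining effectors were close to the detection limit. rsad2, which encodes the nucleotide-modifying enzyme viperin, had no UMI in the 10176 and 9798 macrophage-like cells at 3 dpf and 9 and 7 UMIs over all kept cells of that stage. helz2, samhd1, a hydrolase of DNA building blocks, and the mitochondrial kinase gene cmpk2 stayed under 1 CPM in macrophage-like cells of both 3 dpf libraries.

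Outside macrophage-like cells mxf was low in most classes, and its level there is set beside that of macrophage marker genes, which droplets also carry as free RNA. HSPC-like cells held 5.13 and 1.01 CPM, or 1.35% and 0.290% of the macrophage level. For comparison, 9 macrophage marker genes, summed, stood in the same HSPC-like cells at 1.51% and 0.642% of their macrophage level, with single markers between 0.651% and 2.72% in the DMSO library and between 0.171% and 2.12% with the inhibitor. Thus mxf in HSPC-like cells lay within the range of the markers in both libraries. In neutrophil-like cells mxf was at 27.5 and 17.3 CPM, or 7.23% and 4.96% of the macrophage level, above every one of the 9 markers, of which the highest were at 3.85% and 2.32%. Erythroid-like cells gave 14.3 and 13 CPM. Liver-like cells, of which there were 86 and 61, gave 110 and 25.4 CPM on 40 and 5 UMIs. Of the other Mx genes, mxc had 9.78 and 9.90 CPM in macrophage-like and 6.99 and 4.84 CPM in epidermis-like cells, mxa was at 1.36 and 1.49 CPM in macrophage-like cells, and mxb and mxe were under 1 CPM there. In pigment-like cells mxe reached 3.27 and 1.92 CPM.

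The IFIT proteins bind foreign RNA through tetratricopeptide repeats, and of the 7 ifit genes matched, 2 had a clear level, in different classes. ifit11 favoured macrophage-like cells, with 12.8 and 11.2 CPM, over HSPC-like cells, with 2.87 and 5.06 CPM. ifit12 was highest in HSPC-like cells, with 10.1 and 10.5 CPM, followed by 5.54 and 6.91 CPM in lymphoid-like cells, against 0.766 and 0.462 CPM in macrophage-like cells. The remaining 5 were nearly undetected: over all kept cells at 3 dpf ifit9 had 2 and 1 UMIs, ifit10 had 3 and 0, ifit15 had 7 and 0, ifit8 had 12 and 7, and ifit14 had 32 and 20.

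The transcription factor stat2 was detected in every named class and was highest in macrophage-like cells, at 128 and 148 CPM, whereas HSPC-like cells held 37.4 and 32.7 CPM and neuron-like cells 13.5 and 9.38 CPM. irf9, its DNA-binding partner, was higher in tissue cells: mesenchyme-like cells held 55.7 and 64.9 CPM, pigment-like cells 27.9 and 27.5 CPM and macrophage-like cells 11.6 and 9.28 CPM. irf7, which drives interferon gene transcription and is itself inducible, was highest among blood classes in neutrophil-like cells, at 22.6 and 35.3 CPM, and also high in epidermis-like cells, at 26.8 and 27 CPM. In macrophage-like cells irf7 was at 6.2 and 7.80 CPM. The signal-activated factor irf3 gave 10.9 and 7.18 CPM in macrophage-like, 8.83 and 6.08 CPM in HSPC-like and 1.86 and 1.71 CPM in neuron-like cells.

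Sensors divided between classes as well. The DNA-sensing adaptor gene sting1 was at 20.8 and 21.1 CPM in macrophage-like cells and had no UMI in the 1279 and 1055 HSPC-like cells, whose detection floor of 3 UMIs lies at 0.616 and 1.01 CPM. ifih1, the RNA sensor also called MDA5, was at 11.6 and 9.90 CPM in macrophage-like and 7.19 and 8.44 CPM in HSPC-like cells. The related regulator dhx58 (LGP2) was at 2.99 and 3.03 CPM in macrophage-like and 7.12 and 8.64 CPM in lymphoid-like cells. eif2ak2, the kinase PKR that halts translation upon binding double-stranded RNA, was lower in macrophage-like cells, at 9.61 and 6.51 CPM, than in HSPC-like cells, at 17.7 and 14.2 CPM. Its fish paralogue pkz, which carries Z-DNA binding domains, was at 2.19 and 3.33 CPM and at 7.6 and 4.05 CPM in the same classes.

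The ubiquitin ligase gene trim25, which acts on RNA sensors, was highest in lymphoid-like cells, followed by HSPC-like cells, in both 3 dpf libraries. Macrophage-like cells held 59.4 and 52.8 CPM, HSPC-like cells 68.0 and 66.2 CPM, lymphoid-like cells 76.7 and 97.7 CPM and erythroid-like cells 14.6 and 14.9 CPM. psmb10, a catalytic subunit of the immunoproteasome, was low in macrophage-like cells, with 3.59 and 2.72 CPM, and high in HSPC-like cells, with 26.5 and 33.1 CPM. usp18, whose product removes ISG15 from proteins and dampens the interferon receptor, and parp9, an ADP-ribosyltransferase, were at 1.71 and 2.21 and at 3.17 and 2.87 CPM in macrophage-like cells. Of the guanylate-binding protein genes, large GTPases that attack pathogen vacuoles, gbp1 was at 60.5 and 61.1 CPM and gbp2 at 49.8 and 45.6 CPM in macrophage-like cells, while HSPC-like cells held 17 and 14.9 CPM of gbp1 and 16.8 and 12.8 CPM of gbp2. gbp4 had 4 and 3 UMIs over all kept cells at 3 dpf. Taking all 38 genes, the named class with the highest level was macrophage-like cells for 10 genes in each 3 dpf library. The same count over all features was not made. Near-silent genes entered it, such as ifit9, at 0.0696 and 0.0513 CPM in macrophage-like cells.

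The macrophage-like cells of 3 dpf formed 7 clusters, and mxf and isg15 were distributed in opposite ways over them. These clusters are described by the genes that lead them, which are not results. In the cluster led by cxcl11.1 and tnfa, both inflammatory genes, mxf was at 940 and 717 CPM and isg15 at 13.9 and 18.1 CPM. In the cluster led by apoeb and apoc1, mxf was at 24.7 and 21.6 CPM and isg15 at 80.2 and 71.6 CPM. The cluster led by hmox1a and fthl29 resembled the latter, with mxf at 63.7 and 49.6 CPM and isg15 at 55.2 and 70.8 CPM. The clusters led by moxd1 (mxf 417 and 421 CPM, isg15 14.6 and 19.1 CPM) and slc7a11 (mxf 408 and 373 CPM, isg15 28.2 and 26.6 CPM) lay on the high-mxf side, and that led by fthl29 and si:dkey-7i4.24 lay between, with mxf at 319 and 198 CPM and isg15 at 27.32 and 48.4 CPM. The zgc:110425-led cluster was high in isg15, at 67.8 and 70.3 CPM, with mxf at 183 and 202 CPM. For each gene the order of clusters differed between the libraries only by swaps of neighbours. stat2 varied far less over the same clusters, from 113 to 157 CPM in the DMSO library and from 128 to 212 CPM with the inhibitor, and was highest in the apoeb-led cluster in both. The heat-shock genes hsp70.1, hsp70.2 and hsp70l, whose level can rise when tissue is digested, summed to 943 and 1210 CPM in the apoeb-led cluster and 574 and 731 CPM in the hmox1a-led cluster, against 48.0 to 132 CPM in the other 5 clusters of the DMSO library and 53.5 to 180 CPM in those of the ALK5 inhibitor library. The 2 clusters highest in hsp70 were thus among the 3 highest in isg15, and the part of digestion in this was not tested.

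**Figure D2:**
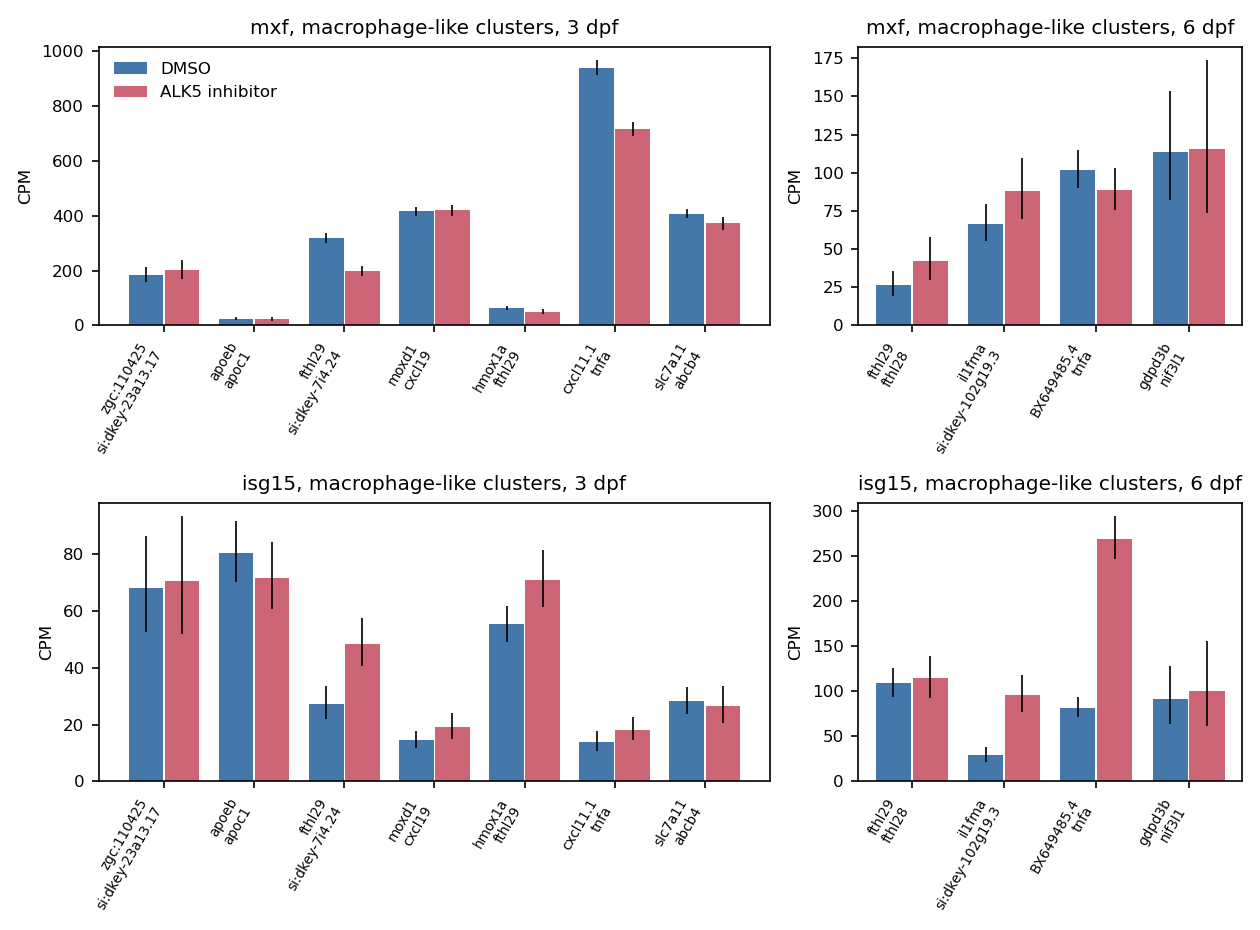
Level (CPM) of mxf and isg15 in each cluster of macrophage-like cells at 3 and 6 dpf, labelled by the 2 leading genes of the cluster, with blue bars for DMSO, red bars for the ALK5 inhibitor and lines for 95% counting intervals. At 3 dpf mxf is highest in the cluster led by cxcl11.1 (940 and 717 CPM), where isg15 is lowest in both libraries, and at 6 dpf the inhibitor library holds more isg15 in the clusters led by BX649485.4 and il1fma.

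Counted over the cells of all these clusters together, mxf was found less often in cells with isg15. The clusters are pooled here, so differences within a cluster cannot be told apart from those between clusters. Among macrophage-like cells of the 3 dpf DMSO library thinned to 1000 UMIs, an mxf UMI was found in 10.5% of the 285 cells with an isg15 UMI and in 18.1% of the 9493 cells without one. In the ALK5 inhibitor library these shares were 11% of 264 cells and 17.9% of 8655 cells. stat2 went the other way, with 20.4% against 10.9% and 18.2% against 13.3%. The sensor gene dhx58 was found in 2.81% against 0.253% and 1.14% against 0.335%. Among the 285 and 264 cells with isg15 these shares rest on few cells with both genes, and no interval was computed. Cells with transcripts of several strongly inducible genes at once were not found at this depth. Of 17 such genes, among them isg15, rsad2, usp18, dhx58 and the listed mx and ifit genes other than mxf, 5.68% and 5.62% of thinned macrophage-like cells at 3 dpf and 8.67% and 11.2% at 6 dpf had a UMI of at least 1 gene. No thinned cell had UMIs of 3 or more genes: 0 of 9778, 8919, 588 and 411 cells, which allows up to 0.0307%, 0.0336%, 0.510% and 0.730%. These limits are for detection at 1000 UMIs and do not bound the share of cells that express several of the genes. In the 6 dpf ALK5 inhibitor library 6 of the 17 genes were seen before thinning in 1 cell outside the macrophages, of 44865 UMIs. A macrophage-like cell of the BX649485.4-led cluster, of 9638 UMIs, also held 6. After thinning no kept cell of that library had more than 2. Without thinning, 2, 5, 6 and 6 macrophage-like cells reached 3 genes.

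Treatment was compared within each class by the log2 ratio of CPM, ALK5 inhibitor over DMSO. A gene was compared where both libraries together held at least 30 UMIs, and it counts as past the fold at 1.5-fold or more. Below, a gene rose or fell only if it was past the fold and its counting interval left out 0. In macrophage-like cells at 3 dpf most of the genes differed by less than the fold. Of 25 genes compared, 3 were past the fold, beside 13.1% of all 14600 genes compared (3.52% upward and 9.62% downward), and the median log2 ratio was 0.02 for these genes and -0.09 for all. Of the genes with the 10 highest levels in the DMSO library, those named here lay between -0.19 (ifit11) and 0.22 (stat2). For mxf, 10921 and 6789 UMIs gave -0.13 (95% counting interval -0.17 to -0.08), and for stat2, 3670 and 2894 UMIs gave 0.22 (0.15 to 0.29), both under the fold. gbp1 (0.02), sting1 (0.02), gbp2 (-0.13), trim25 (-0.17), xaf1 (0.16) and isg15 (0.19) lay within the same range. Single clusters differed more: in the cluster led by fthl29 and si:dkey-7i4.24, mxf went from 319 to 198 CPM (-0.69, -0.84 to -0.53) and isg15 from 27.32 to 48.4 CPM (0.83, 0.42 to 1.23).

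Of the 3 genes past the fold, irf3 fell from 10.9 to 7.18 CPM, a log2 ratio of -0.61 (95% counting interval -0.90 to -0.31), and it was lower in all 5 clusters with at least 30 UMIs, most in the cxcl11.1-led cluster, where it went from 13.9 to 5.46 CPM (-1.34, -2.07 to -0.66). pkz rose from 2.19 to 3.33 CPM (0.60, 0.08 to 1.13), on 63 and 65 UMIs, but was under the fold at 0.57 with a minimum of 1000 UMIs per cell, 0.52 with doublet calls kept, 0.33 with a marker gate per cell and 0.58 at the coarser clustering. ifit12 gave the lowest ratio of the 25, -0.73 (-2.03 to 0.45), on 22 and 9 UMIs. The kinase gene eif2ak2, just under the fold at -0.56 (-0.88 to -0.25), was lower in 6 of 6 clusters, and isg20 at 0.40 (0.13 to 0.66) was higher in 6 of 6. Adding 5 CPM to both sides left none of the 25 past the fold, beside 1.05% of all genes. Relative to the median of all genes, 2 of the 25 were past the fold, 1 upward and 1 downward, beside 11.9% of all genes. The downward gene was then ifit12, and irf3 was under the fold.

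**Figure D3:**
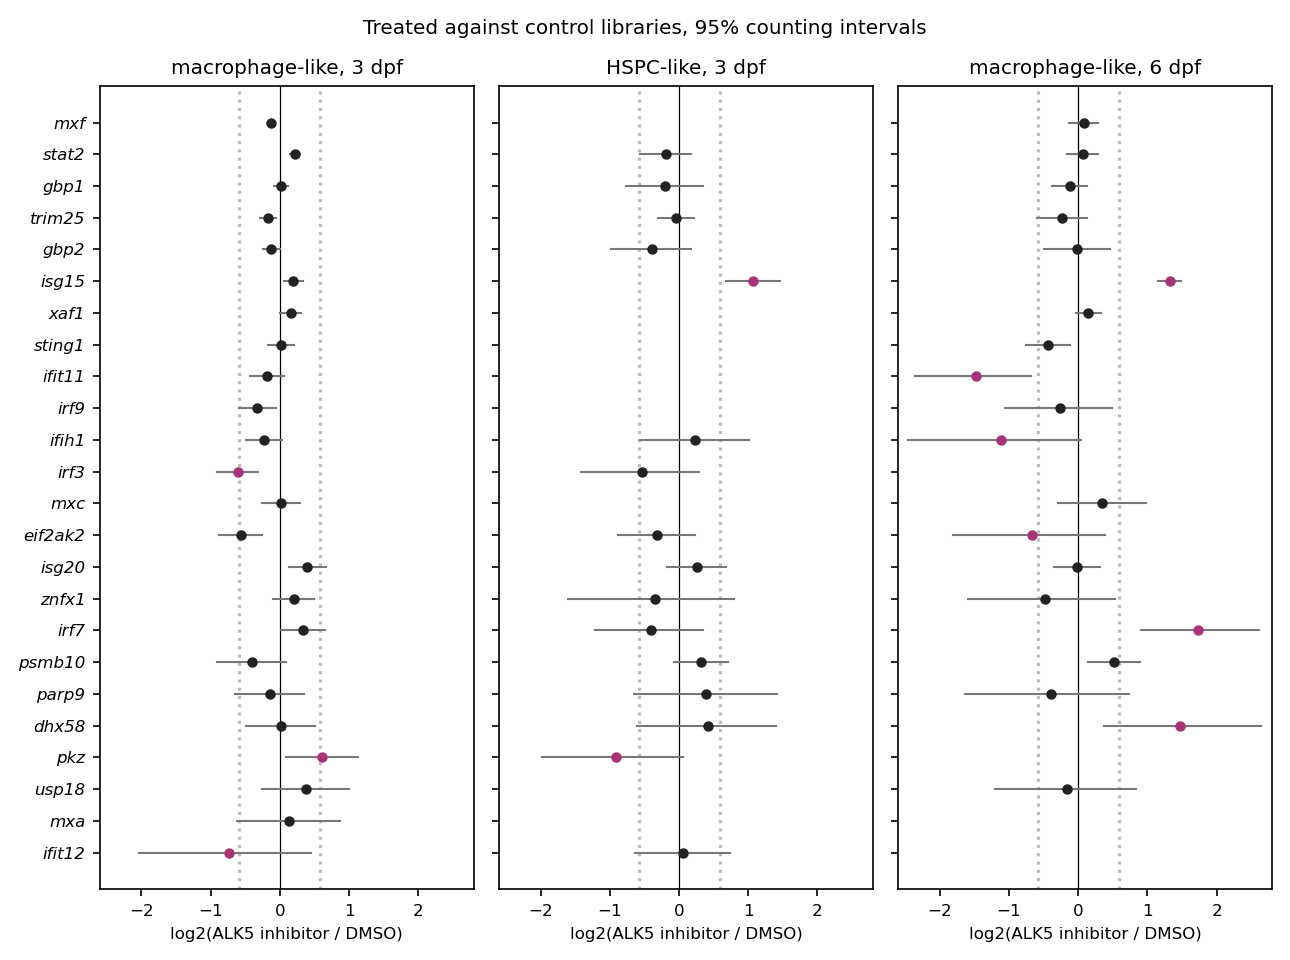
Log2 ratio of CPM, ALK5 inhibitor over DMSO, of each gene reported with at least 30 UMIs over both libraries, in macrophage-like cells at 3 dpf, HSPC-like cells at 3 dpf and macrophage-like cells at 6 dpf, with 95% counting intervals as lines, the 1.5-fold limits dotted and genes past them in purple. isg15 lies at 1.07 in HSPC-like cells at 3 dpf and at 1.32 in macrophage-like cells at 6 dpf, and at 0.19 in macrophage-like cells at 3 dpf.

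In HSPC-like cells isg15 rose. Its level went from 20.1 CPM, on 98 UMIs in 79 cells, to 42.2 CPM, on 125 UMIs in 102 cells, a log2 ratio of 1.07 (95% counting interval 0.68 to 1.46). The thinned share of cells with an isg15 UMI was 1.12% in the DMSO library and 3.99% with the inhibitor, against 6.18% and 9.67% before thinning. All 3 HSPC-like clusters pointed the same way, with ratios of 1.75 (1.11 to 2.42), 0.64 (0.07 to 1.2) and 0.43 (-1.41 to 2.23), the last on 7 and 6 UMIs. Without the cell of each library with the most isg15 UMIs the ratio was 1.02. It depended on the class boundary: at the coarser clustering resolution it was 0.53, under the fold, and with doublet calls kept it was 0.72. Of 17 genes compared in HSPC-like cells, 2 were past the fold, beside 10.6% of all genes (2.88% upward and 7.74% downward), the second being pkz, the lowest of the 17 at -0.91 (-1.98 to 0.06), on 37 and 12 UMIs. The median log2 ratio was -0.06 for the 17 genes and -0.05 for all. Markers of other classes differed in the same HSPC-like cells: 21 erythroid markers summed to 997 CPM in DMSO and 389 CPM with the inhibitor, with 0 and 3 of them at 0, and 21 pigment markers to 1157 and 686 CPM, with 2 and 5 at 0. Their part in these ratios was not tested.

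Lymphoid-like and neutrophil-like cells held fewer UMIs, and 11 and 9 genes could be compared. In lymphoid-like cells 4 of 11 were past the fold, beside 14.8% of all genes (4.88% upward and 9.96% downward). isg20 rose from 22.5 to 35.4 CPM (0.65, 95% counting interval 0.04 to 1.26) and was the highest of the 11. eif2ak2 fell from 23.7 to 10.4 CPM, on 60 and 12 UMIs (-1.19, -2.22 to -0.28), and was the lowest. gbp1 at -0.68 and gbp2 at -0.92 had intervals that included 0. In neutrophil-like cells 4 of 9 were past the fold, beside 12.2% of all genes (4.77% upward and 7.42% downward). irf7 rose from 22.6 to 35.3 CPM, on 51 UMIs in each library (0.64, 0.05 to 1.23). gbp1 (0.72), mxf (-0.67) and eif2ak2 (-0.82), the highest, the second lowest and the lowest of the 9, had intervals that included 0. In both classes 5 CPM added to both sides lowered the count, to 1 and 0, and the share of all genes, to 7.93% and 5.89%. The erythroid markers summed to 1678 and 372 CPM in the lymphoid-like cells, with 3 and 1 at 0, and to 745 and 1657 CPM in the neutrophil-like cells, with 2 and 3 at 0. In the lymphoid-like cells 18 neutrophil markers went from 317 to 170 CPM, with 1 and 3 at 0. What these sums contribute to the ratios was not tested.

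The not blood-like cells of 3 dpf showed lower levels for most of the genes: of 28 compared, 21 had a ratio under 0, with a median of -0.19 against 0.00 for all genes. Past the fold were 5, beside 13.2% of all genes (7.45% upward and 5.77% downward). gbp2 fell from 8.75 to 5.08 CPM (-0.78, 95% counting interval -1.11 to -0.47), ifih1 from 6.23 to 3.71 CPM (-0.75, -1.14 to -0.38) and trim25 from 15 to 9.38 CPM (-0.68, -0.92 to -0.44). mxe was at -0.68 with an interval that included 0. samhd1, on 39 UMIs in each library, was the highest of the 28 at 0.68, with an interval from 0.00 to 1.36. The summed level of 40 macrophage-class markers in the same cells moved along, from 3688 to 2836 CPM, with 2 of the markers at 0 in each library, and its part in these ratios was not tested. The mix of tissues in this pooled class differed as well. Neuron-like cells were 1401 of 15395 cells in DMSO and 1890 of 11589 with the inhibitor, and pigment-like cells 6508 and 4023. Summed neuron markers went from 2641 to 3460 CPM and pigment markers from 19556 to 15861 CPM. How far the mix enters these ratios was not tested. None of the 28 genes was past the fold with 5 CPM added, beside 1.89% of all genes.

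In macrophage-like cells at 6 dpf isg15 had the most UMIs of the genes past the fold. It rose from 73.7 CPM (95% counting interval 67.4 to 80.6), on 491 UMIs in 121 cells, to 184 CPM (171 to 198), on 736 UMIs in 107 cells, a log2 ratio of 1.32 (1.16 to 1.49). A UMI was seen in 19.8% and 25.7% of cells, or 5.44% and 9.73% after thinning, against thinned shares of 0 of 274, which allows up to 1.09%, and 0.820% of neuron-like cells, at median depths of 2367 and 1731 UMIs against 10655 and 8828. The difference ran through the upper range of cells, with at most 25 UMIs in 1 cell of the DMSO library and 51 with the inhibitor, and it was 1.29 without those cells. Under every alternative run for it the ratio stayed between 1.12 and 1.36. In the same macrophage-like cells 16 liver markers summed to 51.7 CPM in DMSO and 121 CPM with the inhibitor, with 2 and 4 at 0. RNA carried over from other cells was not tested as a part of the ratio.

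**Figure D4:**
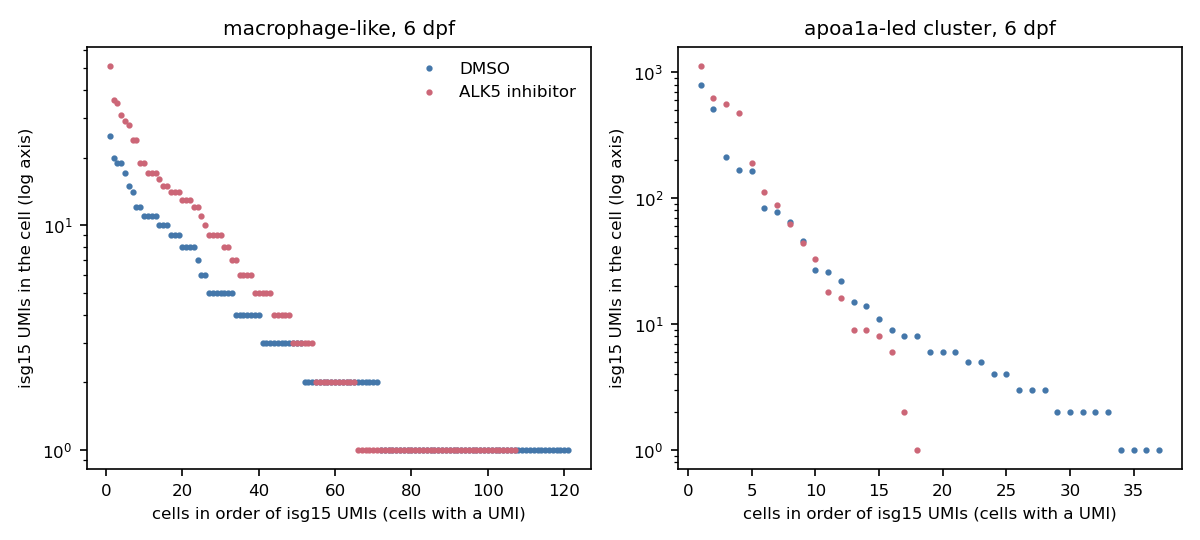
UMIs of isg15 in each cell with at least 1, in order from the highest, in macrophage-like cells and in the apoa1a-led cluster at 6 dpf, DMSO in blue and ALK5 inhibitor in red, on a log axis. In macrophage-like cells the inhibitor library lies above the DMSO library over the upper cells (highest 51 and 25 UMIs), and in the apoa1a-led cluster single cells reach 1121 and 790 UMIs.

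By cluster, isg15 was past the fold in 2 of the 4 larger macrophage-like clusters of 6 dpf, and the difference between clusters was not tested. In the cluster led by BX649485.4 and tnfa it went from 81.6 to 270 CPM (1.73, 95% counting interval 1.49 to 1.96), and in the il1fma-led cluster from 29.1 to 95.6 CPM (1.72, 1.22 to 2.23). In the fthl29-led cluster it was at 109 and 114 CPM (0.07, -0.30 to 0.43) and in the gdpd3b-led cluster at 92 and 101 CPM (0.13, -0.74 to 0.97). The summed level of the 3 hsp70 genes was higher in the same 2 clusters, going from 256 to 679 CPM and from 26.9 to 261 CPM, and stood at 290 and 333 and at 37.9 and 35.2 CPM in the other 2. Over all macrophage-like cells of 6 dpf, 12 of 28 digestion and stress genes were past the fold upward, beside 8.07% of all genes, hsp70.1 (1.87), fosab (1.83) and dnajb1b (1.52) among them, and 3 downward, and their summed level went from 3318 to 4343 CPM. How much of the isg15 difference goes with that was not tested.

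Of the effector and Mx genes compared at 6 dpf, isg20, xaf1, znfx1, mxf and mxc, none was past the fold beside isg15. Of 21 genes compared in macrophage-like cells 6 were past the fold, beside 16.5% of all genes (8.07% upward and 8.38% downward), and the median was -0.02 against -0.03. mxf stood at 73.4 and 77.7 CPM (0.08, 95% counting interval -0.13 to 0.29), xaf1 at 90.9 and 101 CPM (0.15) and stat2 at 62.9 and 65.9 CPM (0.07). Beside isg15, irf7 rose from 2.85 to 9.52 CPM, on 19 and 38 UMIs (1.74, 0.91 to 2.62), the highest ratio of the 21, and dhx58 from 1.80 to 5.01 CPM, on 12 and 20 UMIs (1.48, 0.37 to 2.64). Both rest on few transcripts, and without the cell with the most UMIs in each library they were at 1.60 (0.71 to 2.55) and 1.09 (-0.16 to 2.37), so that the interval of dhx58 then included 0. ifit11 fell from 11.1 to 4.01 CPM, on 74 and 16 UMIs (-1.47, -2.35 to -0.68), the lowest of the 21. ifih1 (-1.12) and eif2ak2 (-0.66) had intervals that included 0. Of the remaining top genes, 3 had close levels over all clusters, with gbp1 at 57.8 and 53.1 CPM, trim25 at 29.4 and 25.1 CPM and gbp2 at 15.2 and 15 CPM. sting1 was lower with the inhibitor, at 41.9 and 31.1 CPM (-0.43, -0.75 to -0.12), under the fold with an interval that left out 0. Single clusters differed more. In the fthl29-led cluster trim25 was at -1.38 (-2.33 to -0.53), gbp1 at -0.60 (-1.15 to -0.07) and isg20 at -1.09 (-1.84 to -0.40). isg20 was at 0.69 (0.20 to 1.19) in the BX649485.4-led cluster. These 3 genes were each lower in 2 and higher in 1 of 3 clusters compared. sting1 was lower in 3 of 3, most in the il1fma-led cluster (-1.53, -2.93 to -0.36).

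The highest isg15 level of the data lay outside the macrophages, in a 6 dpf cluster led by apoa1a, apoea, slc13a2 and mdm2 that carries no cell type name here, since only 5 of 16 liver markers were raised in it and none of them was among its 10 leading genes. The cluster held 53 and 22 cells, with median depths of 1638 and 23646.5 UMIs, and its summed liver markers were at 26984 and 20853 CPM against 247383 and 233236 CPM in liver-like cells. In it isg15 stood at 1843 CPM, on 2322 UMIs, in the DMSO library and 4924 CPM, on 3394 UMIs, with the inhibitor, a log2 ratio of 1.42 (95% counting interval 1.34 to 1.49). Most of this came from few cells. An isg15 UMI was found in 37 of 53 and 18 of 22 cells, but a single cell gave 34% and 33.0% of the UMIs (790 and 1121), and the top 5 cells gave 79.7% and 88%. Counting intervals over transcripts do not cover such differences between cells. isg20, at 356 and 353 CPM, was high in the cluster as well, and mxf and gbp1 had no UMI in its DMSO cells. This comparison was chosen after the level of isg15 in the cluster had been seen. Of 6 genes compared there 3 were past the fold, all upward, beside 30.8% of all genes (18.9% upward and 11.9% downward).

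The remaining 2 genes past the fold in this cluster rest on 1 cell of the ALK5 inhibitor library. That cell held 44865 UMIs, among them 1121 of isg15, 44 of rsad2, 29 of dhx58, 32 of isg20, 8 of pkz, 5 of stat2, 3 of helz2 and 2 of usp18, and 16 of the 38 genes were detected in it. It was the only cell of the cluster with rsad2, so that rsad2 went from no UMI to 63.8 CPM, at least 26.8-fold against a floor of 3 counts in the DMSO cells, and dhx58 from 0.794 to 43.5 CPM. The next cells by isg15 in this library held 629 and 566 UMIs and 8 and 10 detected genes, and the 3 highest cells of the DMSO library held 790, 515 and 214 UMIs and 5, 5 and 4 detected genes.

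The not blood-like cells of 6 dpf, counted with this cluster, differed in several genes. In them isg15 rose from 210 to 493 CPM (1.23, 95% counting interval 1.16 to 1.3), on 2675 and 3554 UMIs, rsad2 from 1 to 47 UMIs and dhx58 from 9 to 33 UMIs (2.70, 1.60 to 3.94). Without the 53 and 22 cells of the apoa1a-led cluster, isg15 was at 30.8 CPM, on 353 UMIs, and 24.6 CPM, on 160 UMIs, so that its ratio turned to -0.33 (-0.60 to -0.05), rsad2 had 1 and 3 UMIs, dhx58 had 8 and 3 and stood at -0.60 (-3.15 to 1.46), and stat2 was under the fold at 0.49 (0.07 to 0.90). That calculation was added after the values of the cluster had been seen. With the cluster counted, 7 of 17 genes compared were past the fold, beside 23.6% of all genes. Upward there were 5, beside 7.76% of all genes, and downward 2, beside 15.9%. sting1 rose from 1.34 to 4.44 CPM (1.73, 0.84 to 2.67) and was at 1.73 without the cluster too. stat2 rose from 9.51 to 14.7 CPM (0.63, 0.24 to 1.02). eif2ak2 fell from 3.46 to 1.53 CPM (-1.18, -2.28 to -0.20), the lowest ratio of the 17, and was at -1.41 without the cluster. rsad2 had the highest ratio, 6.38 (3.83 to 11.7), but 44 of its 47 UMIs came from the single cell, and without the top cell of each library dhx58 was at 0.01. The mix of tissues differed at this stage too. Epidermis-like cells were 218 of 1276 not blood-like cells in DMSO and 159 of 675 with the inhibitor, and neuron-like cells 309 and 152. Summed epidermis markers went from 11537 to 17977 CPM and liver markers from 37110 to 28385 CPM. How far the mix enters the ratios of this pooled class was not tested.

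Between the stages, macrophage-like cells differed in most genes of any kind: 75.7% of 13530 genes compared in the DMSO libraries and 74.3% of 12021 with the inhibitor were past the fold, with medians of -1.13 and -1.03 (log2 of 6 dpf over 3 dpf). Sort, depth and library differ together with stage. Of 24 genes compared, 19 were past the fold in DMSO and 18 with the inhibitor. In DMSO 6 were past it upward, beside 7.67% of all genes, and with the inhibitor also 6, beside 9.69%. Downward, 13 and 12 were past it, beside 68% and 64.6% of all genes. Relative to the median of all genes, a calculation added after the data were seen, 14 of the 24 were past the fold in each treatment, 11 upward and 3 downward. Of all genes 59.3% and 60.7% then were, in either direction, and their split by direction was not computed. psmb10 was highest in both, at 2.42 (95% counting interval 2.04 to 2.81) and 3.34 (2.86 to 3.84). xaf1 was at 1.71 and 1.70, isg20 at 1.85 and 1.44, and isg15 at 1.11 and 2.24. usp18 was past the fold in both, at 1.19 and 0.67, with an interval that included 0 in the latter. sting1 was at 1.01 in DMSO and at 0.56, under the fold, with the inhibitor, where dhx58 was at 0.73 on 59 and 20 UMIs.

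Lowest at 6 dpf were mxf in DMSO, from 380 to 73.4 CPM (-2.37, 95% counting interval -2.51 to -2.24), and irf3 with the inhibitor, from 7.18 to 1.0 CPM (-2.84, -4.74 to -1.45), on 140 and 4 UMIs. mxf with the inhibitor was at -2.16, irf3 in DMSO at -2.19, gbp2 at -1.72 and -1.60, ifih1 at -1.41 and -2.30 and eif2ak2 at -1.14 and -1.24. Relative to the median of all genes these ratios were nearer 0 and still below it, down to -1.81 for irf3 with the inhibitor, and eif2ak2 was left at -0.01 in DMSO and -0.21 with the inhibitor. stat2 (-1.02 and -1.17), trim25 (-1.01 and -1.08), znfx1 (-0.88 and -1.57), irf9 (-0.75 and -0.69) and, in DMSO, irf7 (-1.12) were also lower, but relative to that median stat2 (0.11), trim25 (0.12), znfx1 (0.24), irf9 (0.38) and irf7 (0.011) in DMSO and irf9 (0.35) with the inhibitor were above 0. ifit11 was at -1.49 with the inhibitor and at -0.20 in DMSO. gbp1 was under the fold in both, at -0.06 and -0.20. Relative to the median gbp1 was at 1.06 and 0.83 and ifit11 at 0.93 in DMSO, all past the fold upward. In all, 10 of the 24 genes in DMSO and 6 with the inhibitor had a ratio under 0 that was above 0 relative to the median.

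**Figure D5:**
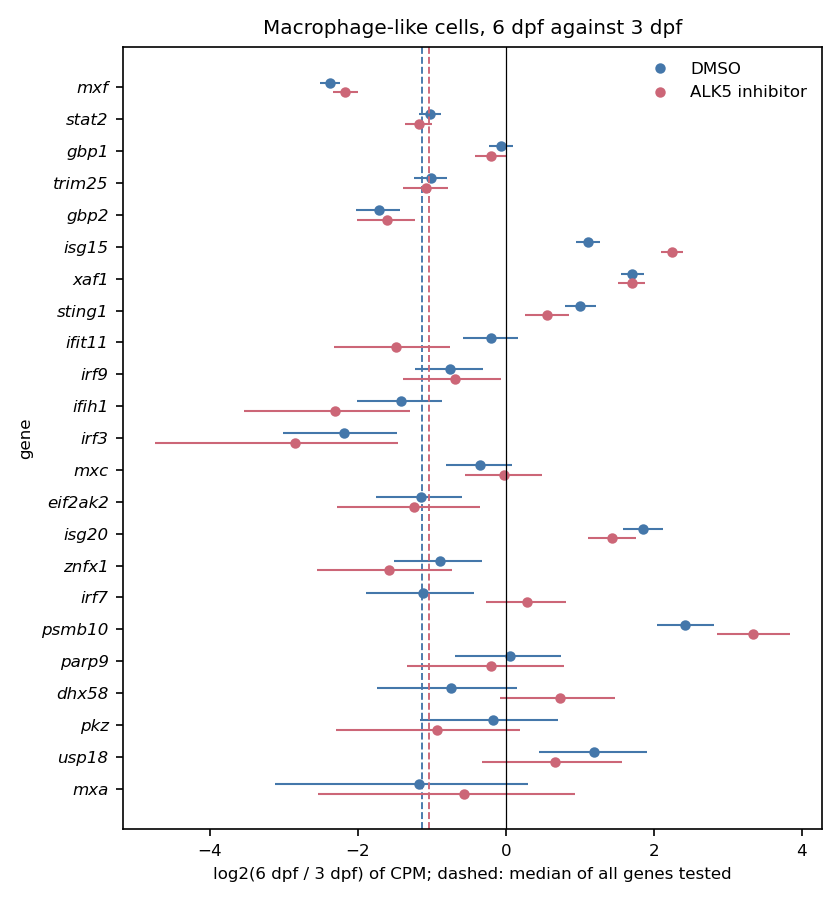
Log2 ratio of CPM, 6 dpf over 3 dpf, in macrophage-like cells of the DMSO (blue) and ALK5 inhibitor (red) libraries, with 95% counting intervals and the median of all genes compared as dashed lines. psmb10, isg20, xaf1 and isg15 lie right of 0, while mxf, gbp2 and irf3 lie left of the dashed medians of -1.13 and -1.03.

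Upstream of these genes, the interferons themselves had few UMIs in macrophage-like cells. The 6 interferon genes, ifnphi1 to ifnphi4, ifng1 and ifng1r, summed to 0.801 and 0.718 CPM in macrophage-like cells at 3 dpf, with 9 and 6 UMIs of ifnphi1 and 12 and 7 UMIs of ifnphi3, and none had enough UMIs to be compared. Their sum was 4.72 and 6.75 CPM in HSPC-like, 5.54 and 7.78 CPM in lymphoid-like and 0 and 2.77 CPM in neutrophil-like cells, with none compared. It was 3.40 and 3.25 CPM in not blood-like cells of 3 dpf, where 2 were compared and neither was past the fold. In the apoa1a-led cluster of 6 dpf it was 6.35 and 18.9 CPM, with none compared. In macrophage-like cells at 3 dpf the interferon receptors were present. There 6 receptor genes summed to 208 and 200 CPM, and ifngr2, a chain of the interferon gamma receptor, was the highest, at 94.1 and 86.4 CPM. None of the 6 was past the fold. Of 10 JAK and feedback genes 1 was, the feedback inhibitor socs1a, which rose from 11.9 to 18.1 CPM (0.60, 95% counting interval 0.38 to 0.82). Of 10 sensing adaptors and receptors 2 were, and both fell: tlr3, the endosomal sensor of double-stranded RNA, from 4.66 to 2.98 CPM (-0.65) and tax1bp1a from 3.86 to 2.56 CPM (-0.59). Of 14 further interferon-stimulated genes 1 was past the fold upward and 1 downward, ftr14, of the fish-specific finTRIM family, on 30 and 7 UMIs (-1.54, -2.97 to -0.32), and of 5 other IRF genes none was. Of all genes compared in these cells, 3.52% were past the fold upward and 9.62% downward. In macrophage-like cells at 6 dpf ifngr1 (-0.65) among 5 receptor genes, ptpn2b (-0.81) among 8 JAK and feedback genes and ifi35 (-0.74) among 9 further interferon-stimulated genes fell, and of 5 other IRF genes 1, irf1b, was past the fold upward (0.62), with an interval that included 0. There 8.07% of all genes were past the fold upward and 8.38% downward. In HSPC-like cells at 3 dpf, where isg15 rose, 0 of 12 further interferon-stimulated genes were past the fold upward and 2 downward, with intervals that included 0. Of 9 JAK and feedback genes there 1 was past the fold upward, and of 5 receptor genes 1 was downward. None of 9 sensing adaptors and receptors or of 6 other IRF genes was past it. The shares of all genes there were 2.88% upward and 7.74% downward.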

How the data were processed

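Single-cell libraries (Chromium 3′ v4) of sorted zebrafish cells were compared, 1 library per group. The deposited matrices hold raw UMI counts per gene and cell that the authors made with Cell Ranger, version 9.0.0 per the file headers and 9.0.1 per the submitters' processing notes, which also name GRCz11. With 1 library per group, no test was run.

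A barcode was kept if it held 500 UMIs and 300 genes or more, with no more than 10% of UMIs from mitochondrial genes. Doublets were called with Scrublet at a rate of 0.4% per 1000 cells and removed (2763 and 1930 calls at 3 dpf, 4 and 5 at 6 dpf, where hardly any cells were marked). Cells of each stage were clustered with scanpy 1.11.5 (2000 variable genes without the genes reported, 30 components, 15 neighbours, Leiden resolution 1, seed 1). A cluster was named from at least 3 markers found in 10% or more of its cells at 1.5-fold or more. The naming scheme was revised after cluster names were seen and before values of the genes reported were computed, except that the apoa1a-led cluster was left unnamed after its values were seen. Class names are rebuilt here, and macrophage and microglia markers were counted together in naming macrophage-like cells.

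UMIs were summed per class and library with numpy 2.4.6 and pandas 2.3.3. Ratios of CPM carry an exact conditional (Clopper-Pearson) 95% interval, levels an exact Poisson interval, shares an exact binomial interval (scipy 1.17.1), all for counting error only. Where 0 cells were found, the limit given is instead 3 divided by the number of cells. It is lower than the exact upper end, 0.247% against 0.303% for 0 of 1217 cells. Apart from genes not reported here by name, which stay counted in the totals, the genes named in full are the 10 highest in macrophage-like cells of the 3 dpf DMSO library, those past 1.5-fold with an interval that left out 0, and the highest and lowest ratio of each comparison. The genes, the marker lists and the pathway lists were chosen with earlier results of these data known. Alternatives tried were 5 CPM added to both sides, other filters, resolution 0.5, doublet calls kept, a marker gate per cell and other totals.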

Additional observations from a re-analysis of the deposited data

How the results depend on the processing

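No paired analysis was possible because each group is 1 library. With 5 CPM added to both sides the counts of genes past the fold were 0, 1, 1, 0 and 0 in macrophage-like, HSPC-like, lymphoid-like, neutrophil-like and not blood-like cells at 3 dpf (3, 2, 4, 4 and 5 as reported), and 3 and 3 in macrophage-like and not blood-like cells at 6 dpf (6 and 7 as reported). The shares of all genes fell too, to 1.05%, 2.67%, 7.93%, 5.89% and 1.89% at 3 dpf and 4.84% and 6.09% at 6 dpf. With genes of at least 1 UMI compared they were 8 of 34, 12 of 32, 16 of 31, 14 of 25 and 11 of 37 at 3 dpf (beside 32.4%, 42.3%, 46.8%, 48.4% and 25.0% of all genes), 15 of 32 and 17 of 32 at 6 dpf (50.6% and 41.8%), 17 of 20 in the apoa1a-led cluster (63.7%; 3 of 6 as reported) and 28 of 34 for 6 against 3 dpf with the inhibitor (80.1%; 18 of 24 as reported). With doublet calls kept they were 5, 2 and 3 in HSPC-like, lymphoid-like and not blood-like cells at 3 dpf (beside 10.3%, 13.8% and 11.6% of all genes). With a marker gate per cell they were 1 and 9 in macrophage-like and not blood-like cells at 3 dpf (beside 18.1% and 13.5%). Without the apoa1a-led cluster, added after seeing the data, the not blood-like count at 6 dpf was 4, beside 25.5% of all genes, and isg15 (-0.33) and dhx58 (-0.60) turned direction. Relative to the median of all genes, also added, irf7 (0.011), irf9 (0.38), stat2 (0.11), trim25 (0.12) and znfx1 (0.24) in DMSO and irf9 (0.35) with the inhibitor turned direction between stages, among genes past the fold with an interval that left out 0. Of those with smaller ratios or wider intervals, gbp1, mxc and pkz in both treatments, ifit11 and dhx58 in DMSO and mxa and parp9 with the inhibitor also turned. The share of macrophage-like cells with several inducible genes, 0 as reported, was 0.153% and 0.146% at 3 dpf for at least 2 genes, and without thinning 0.0510% in the 3 dpf inhibitor library and 0.982% and 1.44% at 6 dpf. Beyond the construction of each alternative, the cause was not tested. The search for interferon response elements in promoters was not run. Genes with few UMIs, the ifit genes and rsad2 among them, are limited by depth.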
